A study of Mus musculus with 12 samples.

Results

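Arginine, glutamine and polyamines are linked through ornithine. The liver-type urea cycle starts with Cps1, which makes carbamoyl phosphate, and with Otc, which joins it to ornithine to give citrulline. Ass1 and Asl turn citrulline into arginine, arginases split arginine into ornithine and urea, and Oat connects ornithine with glutamate and proline. Odc1 is the rate-limiting step from ornithine to the polyamines, Sat1 acetylates polyamines for breakdown or export, and Glul makes glutamine from glutamate and ammonia. The small intestine is known as an organ that burns glutamine and releases citrulline.

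The 9 enzymes Arg2, Ass1, Asl, Otc, Cps1, Oat, Glul, Odc1 and Sat1 were followed in the ileum of C57BL/6J mice. They were chosen by gene symbol, through the Ensembl identifiers of the count table, and make up 9 of its 54838 genes. The 4 groups of 3 mice each were named water + PBS, water + Dex, ZnSO4 + PBS and ZnSO4 + Dex. Mice drank normal water or water with 25 mM ZnSO4 for 7 days, were then injected with 200 µg of the synthetic glucocorticoid dexamethasone (Dex) or with PBS alone, and were sampled 2 h later. According to the study's methods the animals were female and came from a commercial supplier, and the labels give the groups no genetic change. RNA came from washed ileum, not from sorted cells, so fewer cells of a type and less RNA per cell cannot be told apart.

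Each library held between 10760132 and 11827487 gene-assigned reads (median 11388606). Values are given as normalised read counts, scaled to an effective library size of 11396844 reads, and a gene was called changed at an adjusted p under 0.05 over all 15938 genes tested. All 7 enterocyte markers and all 4 markers of the distal ileum had reads in every library. Libraries differed in other tissue: the summed level of 7 B cell markers lay between 10.8 and 579 CPM (counts scaled to the library size), and that of 6 liver markers between 5.97 and 406 CPM. The liver markers stood apart in water + Dex replicate 3 (406 CPM) and in ZnSO4 + Dex replicate 2 (245 CPM), against at most 68.7 CPM in the other 10 libraries. ZnSO4 + Dex replicate 2 also had the lowest enterocyte markers, 9349 CPM against 16316 to 23613 CPM in the other 11.

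All 9 enzymes were expressed in the ileum and passed the filter on low counts. Levels between genes were compared as TPM, in which counts are divided by gene length and set relative to the sum of the library. In water + PBS mice, the mean was 703 TPM for Oat, higher than that of 99.1% of the genes tested. Cps1 followed at 355 TPM and Sat1 at 139 TPM, and the 3 mice of each of these genes lay clear of the next gene in the order. Otc (85.3 TPM), Glul (84.9 TPM), Odc1 (74.3 TPM) and Arg2 (55.3 TPM) had neighbouring ranges that overlapped. Ass1 and Asl were lowest, at 13.5 and 12.8 TPM, with ranges that also overlapped. The depth behind the values differed accordingly, with at least 1368 normalised counts in every mouse for the mitochondrial enzymes Cps1 and Otc and 129.4 to 336.1 for the cytosolic enzymes Ass1 and Asl.

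The order changed in the treated groups through 2 genes. Glul stood at 84.9 TPM in water + PBS mice, 102 TPM in ZnSO4 + PBS mice, 223 TPM in water + Dex mice and 351 TPM in ZnSO4 + Dex mice, where its range overlapped that of Cps1 (360 TPM). Arg2 went from 55.3 to 104, 157 and 211 TPM in the same order of groups. Oat was first in all 4 groups, and Ass1 and Asl were last.

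**Figure D1:**
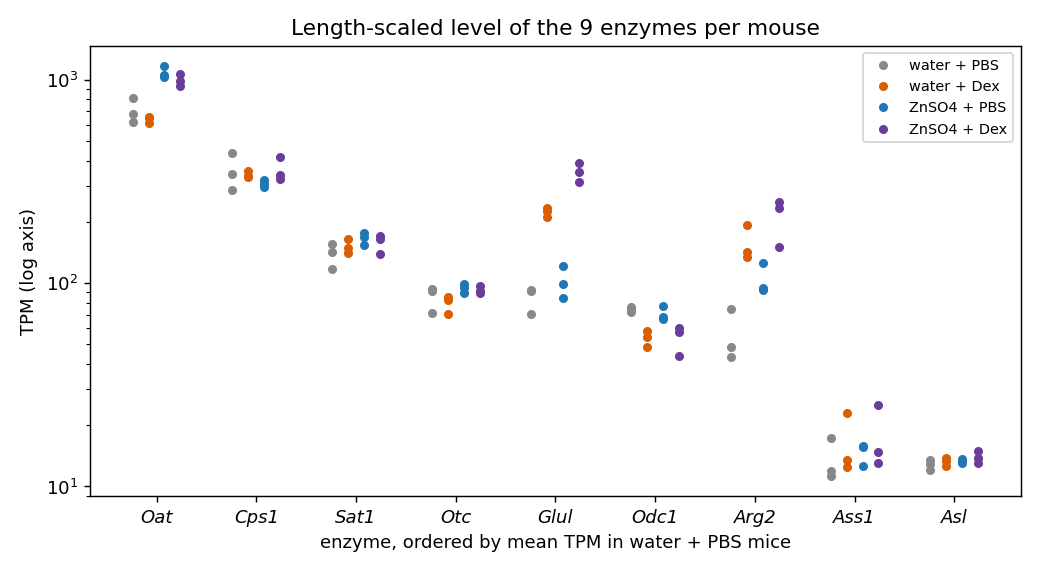
Length-scaled level (TPM, log axis) of each of the 9 enzymes, one point per mouse and one colour per group, with genes ordered by their mean in water + PBS mice. Oat lies at the top and Ass1 and Asl at the bottom in every group, while Glul and Arg2 spread most between groups.

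Glul, glutamine synthetase (mm10 chr1:153899944-153909723, plus strand, protein coding), rose with Dex in both water and zinc mice. The 3 water + PBS mice had 1466, 1365 and 1067 normalised counts, and the 3 water + Dex mice 3620, 3484 and 4013. In mice on ZnSO4, the counts were 1265, 1352 and 1726 after PBS and 5472, 5787 and 4807 after Dex. Every Dex mouse lay above every PBS mouse, and the 3 ZnSO4 + Dex mice lay above all others. Dex raised Glul 2.85-fold in water mice (log2 fold change, LFC, 1.51, SE 0.14, adjusted p = 4.8e-05) and 3.70-fold in zinc mice (LFC 1.89, SE 0.14, adjusted p = 9.2e-06). Against water + PBS mice, both treatments together raised it 4.12-fold (LFC 2.04, SE 0.14, adjusted p = 3.8e-06).

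Zinc alone gave no call for Glul in PBS mice (LFC 0.16, 95% interval -0.15 to 0.46, adjusted p = 0.59). In Dex mice, the group means were 3706 ± 275 without and 5355 ± 500 with ZnSO4 (SD, n = 3), and the groups did not overlap. That difference missed the threshold (LFC 0.53, SE 0.14, adjusted p = 0.056) and passed it in 6 of 9 other ways of fitting, with adjusted p between 0.0071 and 0.046. Averaged over PBS and Dex mice, a contrast added after the data had been seen, zinc raised Glul 1.27-fold (LFC 0.34, SE 0.10, adjusted p = 0.042). The call on this average was lost without 1 of 8 libraries (adjusted p 0.052 to 0.096) and was kept without water + PBS replicate 1, ZnSO4 + PBS replicates 1 or 2 or ZnSO4 + Dex replicate 3. It was also lost without both libraries high in liver markers (LFC 0.34, adjusted p = 0.086), which had the highest Glul counts of their groups. Of the 31-base stretches of Glul, 20.4% are also found in other genes, chiefly the pseudogene Glns-ps1, and reads with more than 1 position were not counted. The 18 to 107 reads per library of Glns-ps1 rose as well (LFC 1.53 for Dex in water mice, adjusted p = 0.0043).

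Arg2, the mitochondrial arginase found outside the liver (mm10 chr12:79130777-79156301, plus strand, protein coding), also rose with Dex. The counts were 329.8, 277.9 and 480.8 in water + PBS mice and 932.1, 1363 and 1052 in water + Dex mice. With ZnSO4, they were 808.1, 543.5 and 572.4 after PBS and 1669, 958.5 and 1550 after Dex. The Dex mice lay above the PBS mice in both drinking regimes, and the lowest ZnSO4 + Dex value came from the library with few enterocyte markers. Dex raised Arg2 3.07-fold in water mice (LFC 1.62, SE 0.26, adjusted p = 0.0019) and 2.17-fold in zinc mice (LFC 1.12, SE 0.25, adjusted p = 0.012). The latter call was lost without ZnSO4 + Dex replicate 1 (adjusted p = 0.053) or ZnSO4 + PBS replicate 2 (adjusted p = 0.051). Both treatments together gave 3.83-fold the level of water + PBS mice (LFC 1.94, SE 0.26, adjusted p = 3.1e-04).

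The 3 ZnSO4 + PBS mice also had more Arg2 than the 3 water + PBS mice, with no overlap. The difference was 1.77-fold (362.8 ± 105 against 641.3 ± 145, SD, n = 3) and missed the threshold with edgeR (LFC 0.82, SE 0.26, adjusted p = 0.097). It passed with DESeq2 (adjusted p = 0.021) and with all genes of at least 1 count in the fit (adjusted p = 0.049). The study, which used DESeq2 on these groups, also lists Arg2 among the genes raised by zinc alone. In Dex mice, zinc and water groups overlapped (LFC 0.32, 95% interval -0.23 to 0.86, adjusted p = 0.54). Averaged over PBS and Dex mice, the LFC of Arg2 for zinc was 0.57 (SE 0.18, adjusted p = 0.058), and it passed the threshold in 5 of 8 other fits (adjusted p 0.013 to 0.049) and without water + PBS replicate 3 or ZnSO4 + Dex replicate 2. Exons of Arg2 overlap those of Vti1b and Gm48780 on the other strand over 28.1% of their length. Vti1b itself had an LFC of 0.11 for Dex in water mice (adjusted p = 0.53) and of 0.34 for zinc in PBS mice (adjusted p = 0.056).

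Oat, the ornithine aminotransferase of mitochondria (mm10 chr7:132557478-132576398, minus strand, protein coding), was higher in mice on ZnSO4. Water mice had 7608, 6634 and 8639 counts after PBS and 7465, 7575 and 7521 after Dex. Zinc mice had 12399, 9894 and 10547 counts after PBS and 10935, 11191 and 10141 after Dex. All 6 zinc mice lay above all 6 water mice. Zinc raised Oat 1.44-fold in PBS mice (LFC 0.52, SE 0.12, adjusted p = 0.029) and 1.43-fold in Dex mice (LFC 0.52, SE 0.12, adjusted p = 0.029). These 2 comparisons share no animals, but both tests take their spread from the same fit of all 12 libraries and so are not independent. For Dex, the LFC was -0.02 in water mice (95% interval -0.27 to 0.23, adjusted p = 0.94) and -0.03 in zinc mice (95% interval -0.28 to 0.23, adjusted p = 0.92).

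Each of the 2 zinc calls of Oat depended on several libraries. The one in PBS mice was lost without water + PBS replicates 1 or 2, ZnSO4 + PBS replicates 1 or 3 or water + Dex replicate 1, with adjusted p up to 0.11 and an LFC of 0.42 to 0.62 over all 12 omissions, and with only the groups compared in the fit (adjusted p = 0.086). The one in Dex mice was lost without any water + Dex library and without ZnSO4 + Dex replicates 1 or 2 (adjusted p up to 0.11), and without both libraries high in liver markers (LFC 0.49, adjusted p = 0.15). Averaged over PBS and Dex mice, the rise was 1.43-fold (LFC 0.52, SE 0.08, adjusted p = 0.0019) and was kept in all 12 omissions (adjusted p at most 0.008). The summed level of 5 T cell markers also separated the drinking regimes, at 62.2 to 104 CPM in the 6 water mice and 30.4 to 57.2 CPM in the 6 zinc mice. On this average, 4 of the 5 were called lower, against 6.52% of all genes tested. The summed level of 5 goblet cell markers was higher with zinc within each injection. It was 9495 to 10131 CPM against 10605 to 12963 CPM after PBS, and 10904 to 11517 CPM against 12285 to 14107 CPM after Dex. Of these 5, 2 were called higher and 0 lower on this average, against 6.24% of all genes tested higher and 6.52% lower. The part of either cell type in the result was not tested.

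**Figure D2:**
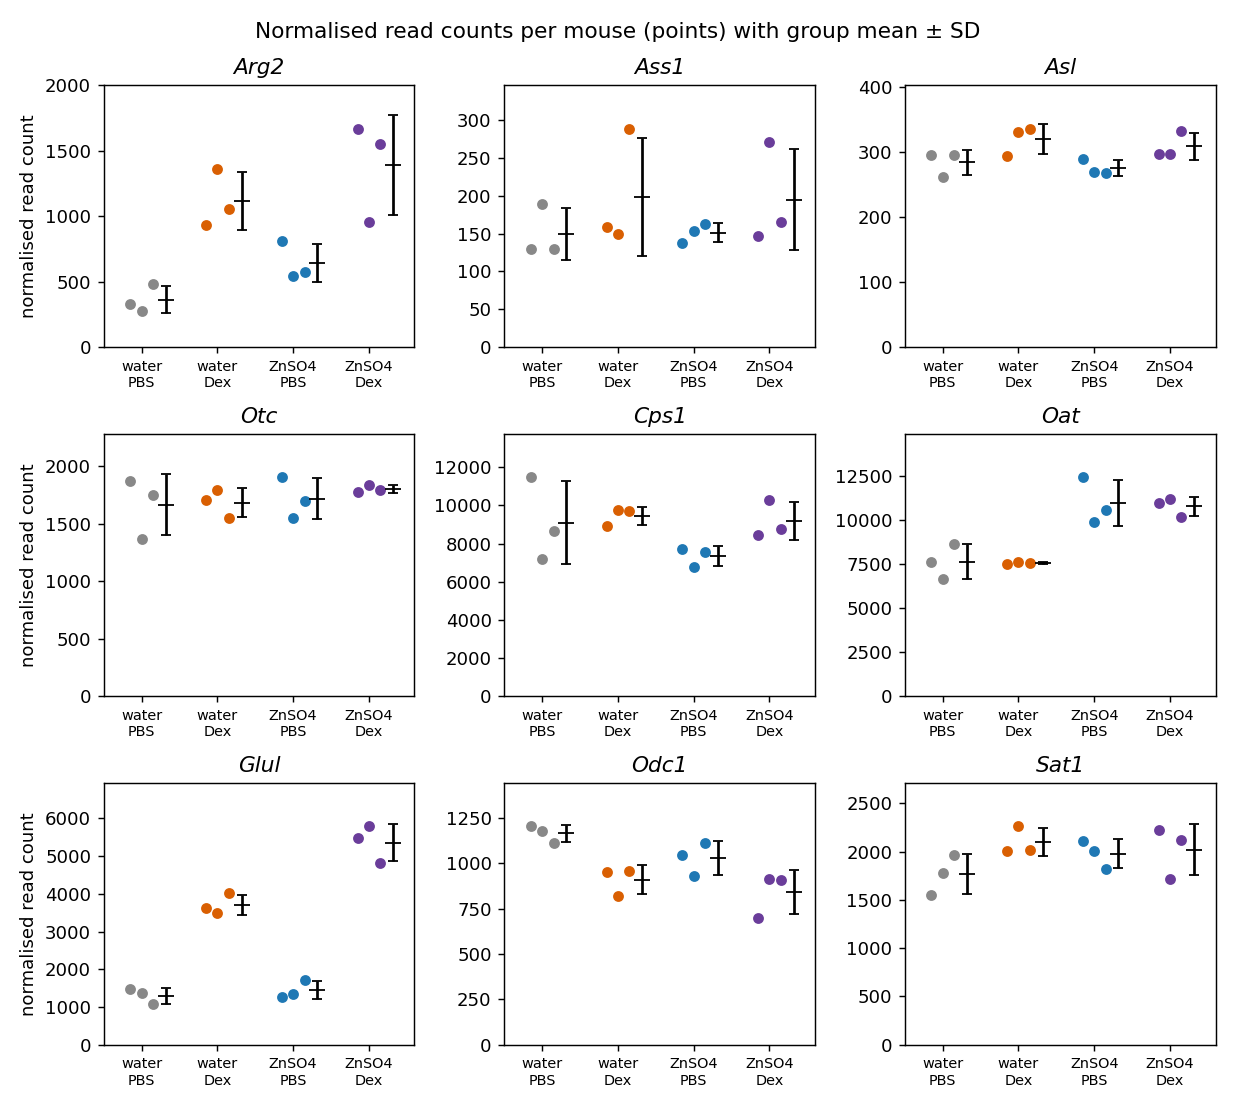
Normalised read counts of the 9 enzymes, one panel per gene with an axis from 0, one point per mouse, and the group mean ± SD (n = 3) beside the points. Glul and Arg2 are higher in both Dex groups, Oat is higher in both ZnSO4 groups, and Ass1 has 1 high mouse in each Dex group.

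RefSeq promoter sequences (GRCm38.p6) were at hand for 6 of the 9 enzymes and not for Arg2, Asl or Cps1. The 250 bases before the RefSeq start are shown for Oat, Glul and Odc1, the genes of these 6 that were called in at least 1 comparison. The bases shown let the motifs searched be seen in place. RefSeq starts can differ from the gene positions given here. For Odc1 the RefSeq start lies inside the gene, so the bases shown from chr12:17544794 to 17544872 overlap it. For Glul the RefSeq start lies before the gene position. Capitals mark the metal response element core TGCGCNC on either strand.

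Oat (chr7:132576399-132576648, minus strand): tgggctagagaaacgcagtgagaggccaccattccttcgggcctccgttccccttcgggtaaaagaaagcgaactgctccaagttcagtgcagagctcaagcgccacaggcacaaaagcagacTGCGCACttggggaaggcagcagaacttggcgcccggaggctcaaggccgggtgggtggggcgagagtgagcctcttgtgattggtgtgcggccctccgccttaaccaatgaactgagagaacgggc

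Glul (chr1:153899679-153899928, plus strand): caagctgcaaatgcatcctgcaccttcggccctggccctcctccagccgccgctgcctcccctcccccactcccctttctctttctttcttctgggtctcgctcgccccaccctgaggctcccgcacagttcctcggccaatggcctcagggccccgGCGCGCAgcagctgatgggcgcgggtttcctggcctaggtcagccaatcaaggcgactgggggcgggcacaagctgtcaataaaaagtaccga

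Odc1 (chr12:17544623-17544872, plus strand): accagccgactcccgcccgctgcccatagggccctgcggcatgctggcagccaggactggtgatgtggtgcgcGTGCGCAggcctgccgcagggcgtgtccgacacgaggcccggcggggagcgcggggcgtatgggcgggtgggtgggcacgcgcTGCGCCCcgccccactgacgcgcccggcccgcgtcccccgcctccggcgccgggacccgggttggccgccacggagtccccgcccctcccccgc

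Oat and Glul each held 1 match to TGCGCNC, beginning 127 and 93 bases before the start, and Odc1 held 2. Ass1, which was not called in any comparison, also held 1, beginning 189 bases before the start, while Sat1 and Otc held 0. Among all 32851 promoters of this length, 12.5% held at least 1 match. The other core searched, TGCACNC, is present in 10.4% of promoters and was found in Otc but in none of the 3 shown. The core AGAACA of glucocorticoid receptor sites, present in 16.1% of promoters, was found in Sat1 alone of the 6. These matches are letters within a short window, and no binding was measured.

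Of the 2 polyamine enzymes, Odc1 fell with Dex in some contrasts and Sat1 was not called. Odc1, ornithine decarboxylase (mm10 chr12:17544794-17551505, plus strand, protein coding), had 1203, 1176 and 1112 counts in water + PBS mice, 953.3, 819.9 and 956.3 in water + Dex mice, 1045, 928.7 and 1113 in ZnSO4 + PBS mice and 698.9, 914.3 and 910 in ZnSO4 + Dex mice. Both Dex groups lay below their PBS groups without overlap. Neither difference passed alone, with an LFC of -0.35 in water mice (SE 0.11, adjusted p = 0.07) and of -0.29 in zinc mice (SE 0.11, adjusted p = 0.12). The first passed with DESeq2 (adjusted p = 0.042), with only the groups compared in the fit (adjusted p = 0.031) and without ZnSO4 + Dex replicate 1 (adjusted p = 0.028). Averaged over water and zinc mice, Dex lowered Odc1 (LFC -0.32, SE 0.08, adjusted p = 0.012). With both treatments, the group mean fell by 27.7%, from 1163 ± 46.7 to 841 ± 123 (SD, n = 3; LFC -0.47, SE 0.11, adjusted p = 0.011). Of the 31-base stretches of Odc1, 31.3% are also found in other genes, chiefly Gm7278, which had at most 13 reads in a library. In water mice, summed enterocyte markers were higher after Dex (20956 to 23600 CPM against 16316 to 18899 CPM). So were those of the distal ileum (8543 to 10292 CPM against 7024 to 8322 CPM) and of goblet cells (10904 to 11517 CPM against 9495 to 10131 CPM). The other marker sums overlapped, and in zinc mice these did too. No enterocyte or goblet cell marker was called for Dex in water mice. Their part in the Dex differences was not tested.

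Sat1, the spermidine/spermine acetyltransferase, was not called in any comparison. Its counts lay between 1549 and 2261 in the 12 mice, and the widest LFC was 0.25 for Dex in water mice (95% interval -0.0032 to 0.50, adjusted p = 0.23), where the groups did not overlap.

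Ass1, Asl, Otc and Cps1 were not called in any comparison. Otc ranged from 1368 to 1904 counts over the 12 mice, with LFCs between 0.01 and 0.11. Cps1 ranged from 6774 to 11469 and was lowest in ZnSO4 + PBS mice (7363 ± 516 against 9104 ± 2170 in water + PBS mice, SD, n = 3; LFC -0.31, 95% interval -0.64 to 0.03, adjusted p = 0.29). In zinc mice, Cps1 was higher after Dex without overlap (LFC 0.32, 95% interval -0.02 to 0.65, adjusted p = 0.22). Asl, argininosuccinate lyase, ranged in group means from 275.7 ± 12.0 in ZnSO4 + PBS mice to 320.3 ± 22.7 in water + Dex mice, and its LFC for Dex averaged over both regimes was 0.17 (SE 0.06, adjusted p = 0.089). A p above the threshold does not show that these enzymes were equal between groups, and the intervals give the size still allowed.

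Ass1, argininosuccinate synthase, was uneven between mice of the same group. Its LFC for Dex averaged over both regimes was 0.39 (95% interval -0.05 to 0.83, adjusted p = 0.21), so a difference between groups stays possible. Its counts were 129.4, 189.6 and 130.2 in water + PBS mice, 158.3, 149.1 and 288.5 in water + Dex mice, 137.7, 153.7 and 162.1 in ZnSO4 + PBS mice and 147.2, 270.8 and 165.6 in ZnSO4 + Dex mice. The 2 high values came from water + Dex replicate 3 and ZnSO4 + Dex replicate 2, the libraries with the most reads on liver markers. Arg1, the arginase of hepatocytes, had 42.1 and 49.0 counts in these 2 libraries against 7.81 to 17.1 in the other 10. Gls2, the liver-type glutaminase, had 40.0 and 35.5 against 12.3 to 25.3. Asl, Otc and Cps1 did not stand apart in both: Asl had 336.1 and 296.8 counts there against 261.8 to 333.2 elsewhere, and Otc and Cps1 lay inside the range of the other 10. The LFC of Ass1 for Dex was 0.41 in water mice and 0.37 in zinc mice with all libraries and 0.04 and 0.05 without these 2, which had to be lower because the 2 highest Ass1 values of the 12 mice were left out. The part of liver RNA in the Ass1 values was not tested. Of the 31-base stretches of Ass1, 43.1% are also found in other genes, chiefly Gm5424, so part of its reads may be missing from the counts.

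**Figure D3:**
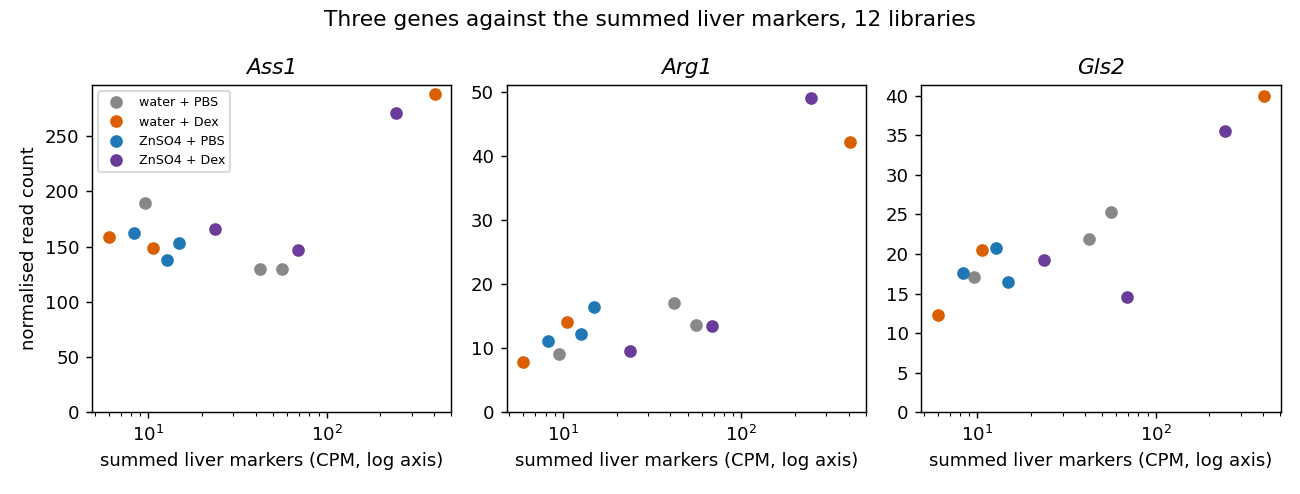
Normalised read counts of Ass1, Arg1 and Gls2 in the 12 libraries against the summed level of 6 liver markers (CPM, log axis), coloured by group. The 2 libraries at 245 and 406 CPM have the highest counts of all 3 genes.

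Taking all 9 enzymes, zinc in PBS mice raised 1 (Oat) and lowered 0, where 2.11% of all genes tested were called higher and 2.54% lower. Dex in water mice raised 2 (Glul and Arg2), with 5.41% of all genes called higher and 4.51% lower. Zinc in Dex mice raised 1 (Oat), with 1.83% and 2.54% of all genes called higher and lower. Dex in zinc mice raised 2 (Glul and Arg2), with 6.65% and 7.08%. Both treatments together raised 3 (Glul, Arg2 and Oat) and lowered 1 (Odc1), with 11.5% and 11.9%. On the averaged contrasts, zinc raised 2 (Oat and Glul; 6.24% of all genes higher and 6.52% lower) and Dex raised 2 and lowered 1 (Odc1; 10.4% higher and 11.2% lower). With 9 genes, these counts describe the members and say nothing of the group as such. Comparisons that start from water + PBS share these 3 mice.

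None of the 9 had an interaction of zinc and Dex, and 0% of all genes did with edgeR. At an unadjusted p under 0.05 there were 794 genes and 0 of the 9, and DESeq2 called 6 genes. The lowest value among the enzymes was that of Glul, where Dex had a larger LFC in zinc than in water mice by 0.38 (SE 0.20, 95% interval -0.06 to 0.81, unadjusted p = 0.083, adjusted p = 0.95). For Arg2 the difference was -0.50 (95% interval -1.28 to 0.28, adjusted p = 0.96), and for Oat -0.00 (95% interval -0.36 to 0.35, adjusted p = 1).

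**Figure D4:**
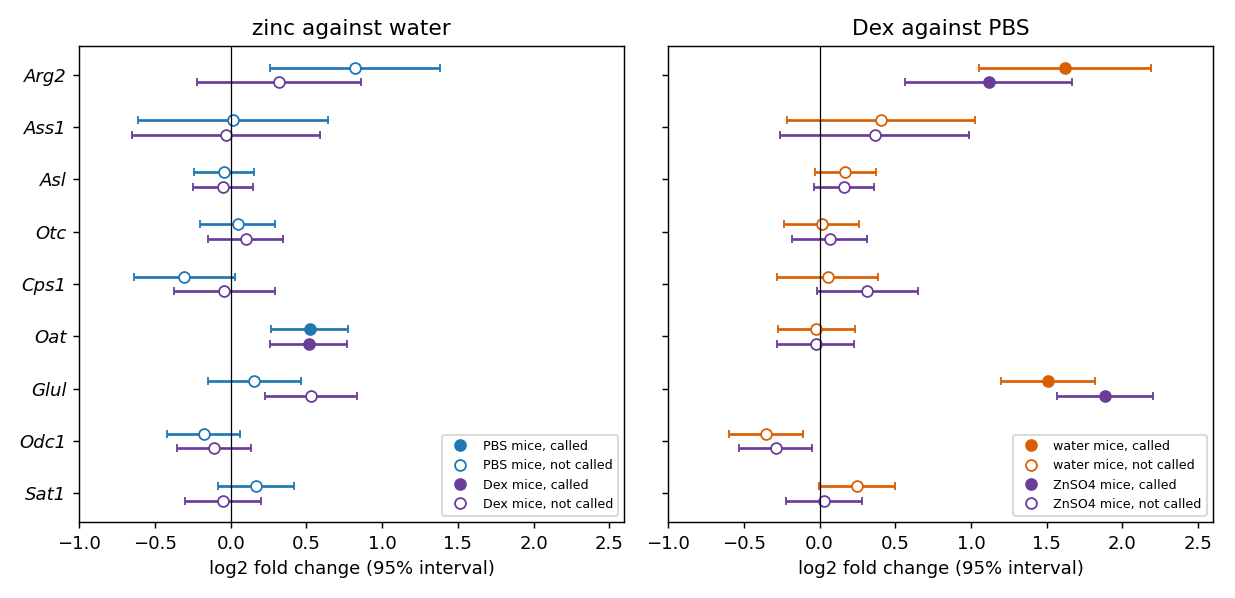
Log2 fold changes of the 9 enzymes with 95% intervals, zinc against water on the left (in PBS and in Dex mice) and Dex against PBS on the right (in water and in ZnSO4 mice). Filled points were called at an adjusted p under 0.05; Glul and Arg2 are called for Dex in both regimes and Oat for zinc in both.

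A wider list of 77 genes of the same pathways was also followed, of which 74 were tested. Zinc in PBS mice raised 2 and lowered 7 of them (12.2%, against 4.66% of all genes tested in either direction; median LFC -0.16 against -0.01), and Dex in water mice raised 9 and lowered 6 (20.3% against 9.93%; median LFC -0.02 against -0.01). For zinc in Dex mice 3 rose and 4 fell (9.46% against 4.37% of all genes). For Dex in zinc mice 10 rose and 4 fell (18.9% against 13.7%), and with both treatments 11 rose and 15 fell (35.1% against 23.3%). No gene of the list had a called interaction.

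Around glutamine and glutamate, genes changed in both the zinc and the Dex comparison. Glud1, glutamate dehydrogenase, rose with zinc in PBS mice (LFC 0.50, SE 0.09, adjusted p = 0.0087) and with Dex in water mice (LFC 0.43, adjusted p = 0.0074), and with both treatments it went from 2087 to 3776 counts. Got1, the cytosolic aspartate aminotransferase, rose from 784.5 to 1885 counts with Dex in water mice (LFC 1.27, SE 0.19, adjusted p = 0.0012). The 2 subunits of glutamate-cysteine ligase, which starts glutathione synthesis, were also called: Gclc with Dex in water mice (LFC 0.97, adjusted p = 0.0012) and Gclm with zinc in PBS mice (LFC 0.82, adjusted p = 0.015). The Gclm call was lost without water + PBS replicates 1 or 2 or ZnSO4 + PBS replicates 1 or 3 (adjusted p up to 0.062). Asns, asparagine synthetase, fell with zinc in PBS mice from 639.8 to 371 counts (LFC -0.79, adjusted p = 0.034), a call lost in 7 of 12 omissions of a library (adjusted p up to 0.13), namely every PBS library but water + PBS replicate 3, and replicate 1 of both Dex groups.

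The proline branch beside Oat was split. Prodh, which starts proline breakdown, rose from 568.8 to 1386 counts with Dex in water mice (LFC 1.28, SE 0.12, adjusted p = 4.4e-05) and from 419.4 to 1139 in zinc mice (LFC 1.44, adjusted p = 1.7e-05). Aldh18a1, which starts proline and ornithine synthesis from glutamate, fell with Dex from 1203 to 887.3 counts in water mice (LFC -0.44, SE 0.08, adjusted p = 0.005) and by 0.44 on the log2 scale in zinc mice (adjusted p = 0.0038). Aldh4a1, the next enzyme after Prodh and Oat towards glutamate, fell with zinc from 225.1 to 104.1 counts in PBS mice (LFC -1.11, SE 0.21, adjusted p = 0.015) and from 377 to 95.25 in Dex mice (LFC -1.99, adjusted p = 8.0e-04). Dex in water mice raised it (LFC 0.74, adjusted p = 0.04), a call that was lost without both libraries high in liver markers (adjusted p = 0.12), with only the groups compared in the fit (adjusted p = 0.06) and without water + Dex replicates 2 or 3, water + PBS replicates 1 or 3 or ZnSO4 + Dex replicate 1 (adjusted p up to 0.15). The zinc call in PBS mice was lost without ZnSO4 + PBS replicate 3 (adjusted p = 0.065) and with only the groups compared (adjusted p = 0.061). Its reads are uncertain, since 32.5% of its exon length is shared with Gm21969 on the same strand.

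Among the genes that use arginine, Nos2, the inducible nitric oxide synthase, fell with zinc from 4649 to 1314 counts in PBS mice (LFC -1.82, SE 0.32, adjusted p = 0.01) and from 3452 to 752 in Dex mice (LFC -2.20, adjusted p = 0.0038). The summed level of 6 macrophage markers, another cell type known to use Nos2, was 349 to 671 CPM in water mice and 299 to 490 CPM in zinc mice, and its part was not tested. Cad, which makes carbamoyl phosphate from glutamine for pyrimidine synthesis, fell with zinc in PBS mice (LFC -0.64, SE 0.10, adjusted p = 0.006) and in Dex mice (LFC -0.53, adjusted p = 0.014). The latter call was lost without replicate 1 of water + Dex or of ZnSO4 + Dex (adjusted p up to 0.069). Of the 13 listed genes of arginine and the urea cycle, these were the 2 called lower for zinc in PBS mice, and 0 were called higher (15.4% called, against 4.66% of all genes tested). Dex in water mice gave no call among the 13 (lowest adjusted p = 0.069). Averaged over both regimes, 1 of the 13 was called higher and 1 lower for Dex (15.4% called, against 21.5% of all genes tested).

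In the polyamine branch, Srm, spermidine synthase, fell with zinc in PBS mice from 272 to 152.8 counts (LFC -0.83, SE 0.13, adjusted p = 0.0047). It was the only call among the 18 listed genes tested (5.56%, against 4.66% of all genes tested). Zinc in Dex mice gave 0 calls among the 18 (4.37% of all genes tested). Averaged over PBS and Dex mice, zinc raised 1 and lowered 4 of the 18 (27.8% against 12.8%). Mtap, which recycles a by-product of polyamine synthesis, fell with Dex in water mice from 223.4 to 149.7 counts (LFC -0.58, SE 0.13, adjusted p = 0.012). The branch did not fall as a whole with Dex. Of the 18, Dex in water mice raised 2 and lowered 1 (16.7% called, against 9.93% of all genes tested). In zinc mice, Dex raised 3 and lowered 1 (22.2% against 13.7%). The genes that rose fell outside the rule for naming. Transporters of cationic amino acids diverged: Slc7a2 rose with Dex in water mice from 55.4 to 142 counts (LFC 1.36, SE 0.26, adjusted p = 0.0056), and Slc7a1 fell from 805.5 to 612.4 (LFC -0.40, SE 0.09, adjusted p = 0.014), though not without water + Dex replicates 1 or 3 (adjusted p up to 0.063). Slc7a1 also fell with zinc in PBS mice (LFC -0.50, adjusted p = 0.0099). Both falls of Slc7a1 start from the same 3 water + PBS mice. In zinc mice, its mean was 568.9 counts after PBS and 564.2 after Dex. Its Dex call averaged over both regimes (LFC -0.20, adjusted p = 0.037) was lost in 9 of 12 omissions of a library. Slc25a29, a mitochondrial carrier of basic amino acids, rose with Dex in water mice from 27.2 to 59.4 counts (LFC 1.12, adjusted p = 0.011), and the glutamine transporter Slc38a1 fell from 1047 to 774.8 (LFC -0.43, adjusted p = 0.01).

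**Figure D5:**
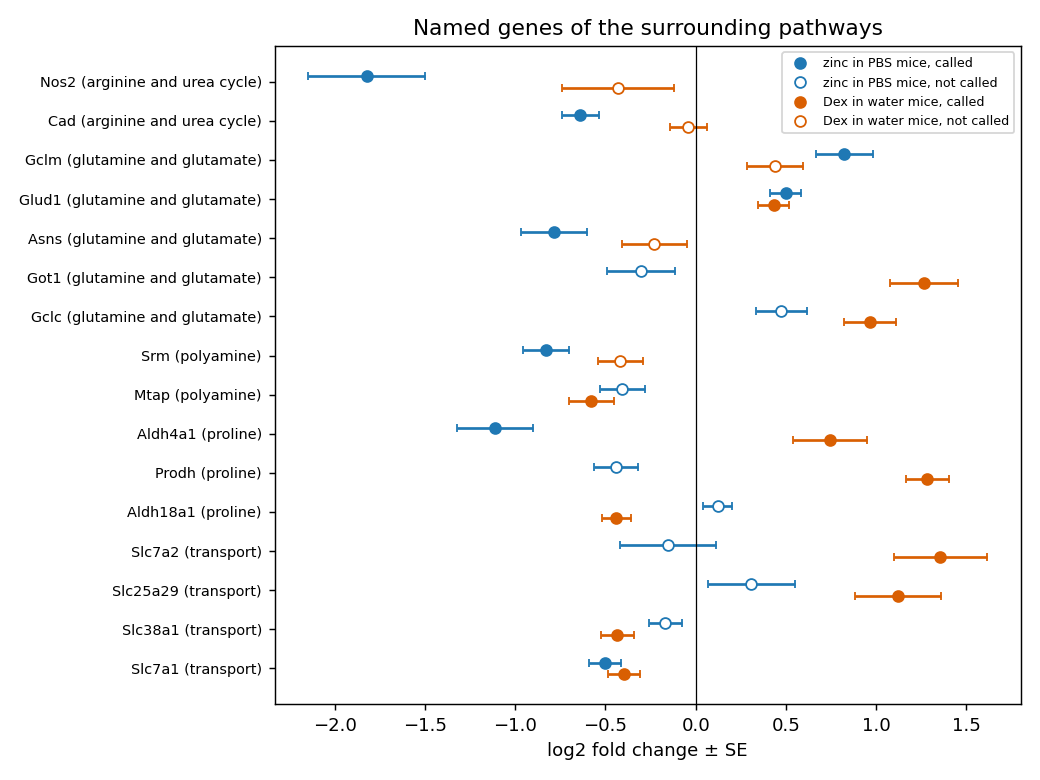
Log2 fold changes ± SE of the genes of the surrounding pathways named in the text, for zinc in PBS mice (blue) and Dex in water mice (orange), with filled points for calls at an adjusted p under 0.05. Both comparisons share the water + PBS mice. Nos2 has the lowest value for zinc, and Slc7a2, Prodh and Got1 have the highest values for Dex.

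Genes with the pattern most like each called enzyme were named by the root mean square difference of centred log2 CPM over the 12 libraries, among 11565 genes. For Oat these were Rab27b (0.10), Fgfr3 (0.11) and Nxt2 (0.11), where the SD of Oat itself was 0.29. For Glul (SD 0.93) they were Rbbp8 (0.23), 9230116L04Rik (0.24) and Plekhh1 (0.24). For Arg2 (SD 0.84) they were Sult1d1 (0.18), Gm21885 (0.28) and Vwa1 (0.29). For Odc1 (SD 0.23) they were Ptbp1 (0.09), Uck2 (0.10) and Tmem51 (0.10).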

How the data were processed

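Ileum RNA of 12 mice (4 groups of 3) was analysed. Per the labels and methods, libraries were stranded and sequenced single-end, and the authors mapped reads to mm10 and counted them per gene with featureCounts, without reads of more than 1 position. The submitters' processing notes also name HISAT2 2.0.4, Trimmomatic, SAMtools and DESeq2. The annotation release and strand setting are not given in the sources used here. The authors deposited these raw counts, without normalisation, for 54838 genes. Symbols, positions and lengths came from GENCODE (GRCm38).

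Here, genes passing edgeR's filterByExpr (minimum count 10) were scaled by TMM and fitted with 4 group means by glmQLFit and glmQLFTest (edgeR 4.0.16, R 4.3.3), and p-values were adjusted by Benjamini-Hochberg over 15938 genes. SEs are the LFC divided by the root of the F statistic. The labels number the samples of a group and do not say more of how they were taken, so p-values measure the spread between these samples. DESeq2 1.42.0, RLE and upper-quartile factors, 2 other count filters, a replicate block, fits of only the groups compared, a B cell marker covariate, an LFC of 0.8 as a further condition, and leaving out each library were tried. Averaged contrasts and leaving out the 2 libraries high in liver markers were added after seeing the data. The procedure was also run on simulated counts with the same spread set for every gene. That run cannot show how the fit handles genes or libraries of unequal spread.

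The members, pathway list and markers were chosen with earlier results of these data known. Of the pathway list, 30 genes were called in at least 1 of 5 pairwise comparisons, so the text names the up to 5 largest rises and 5 largest falls among the calls for zinc in PBS mice and for Dex in water mice (17 genes, of which 1 is not reported here), and the 3 genes most like each called member with a mean CPM of at least 5 (log2 CPM with a prior count of 2). Arg1 and Gls2, and the genes sharing sequence with a member, were named after their values were seen. No 2 libraries of a group agreed within sampling noise (chi-square per degree of freedom 7.84 to 43.5).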

Additional observations from a re-analysis of the deposited data

How the results depend on the processing

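The calls on Glul for Dex in both regimes, on Arg2 for Dex in water mice, and on Glul, Arg2 and Odc1 for ZnSO4 + Dex against water + PBS kept their direction and side of the threshold in all 12 omissions of a library and in the 9 other fits. The other scalings moved the median LFC of all genes by at most 0.044.

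For zinc in PBS mice, 1 enzyme was called higher, 2 with DESeq2 and with all genes of at least 1 count, 0 with only the groups compared and 0 with an LFC above 0.8, and between 0 and 1 without 1 library. For zinc in Dex mice, 1 was called higher, 2 with DESeq2, upper-quartile factors, either other count filter, only the groups compared or the B cell covariate, 0 with an LFC above 0.8 or without both libraries high in liver markers, and 0 to 2 without 1 library. For Dex in water mice, 0 were called lower, 1 with DESeq2 and with only the groups compared, and 0 to 1 without 1 library. For Dex in zinc mice, 1 to 2 were called higher without 1 library. With an LFC above 0.8, 0 were called lower for both treatments together and for Dex averaged over both regimes, and 0 higher for zinc averaged over both injections, where 1 to 2 were called without 1 library. The cause was not tested.

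Of the pathway list, requiring an LFC above 0.8 left 1 of 2 higher and 3 of 7 lower calls for zinc in PBS mice, 5 of 9 and 0 of 6 for Dex in water mice, 0 of 3 and 2 of 4 for zinc in Dex mice, 6 of 10 and 0 of 4 for Dex in zinc mice, and 5 of 15 lower calls for both treatments. Calls for Dex in zinc mice were 6 higher and 2 lower with only the groups compared, and 6 higher without ZnSO4 + Dex replicate 1. For zinc in PBS mice, 1 was higher without water + PBS replicates 1 or 2 or ZnSO4 + PBS replicates 1 or 3, and 4 were lower without ZnSO4 + PBS replicate 3. For zinc in Dex mice, 1 was higher without water + Dex replicates 1 or 2 and 5 without ZnSO4 + Dex replicate 2. For Dex in water mice, 3 were lower without water + Dex replicate 3.

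Same-numbered mice did not deviate together (median correlation -0.06 over 18 pairs, -0.36 to 0.46, against 0.02 over 36 other pairs). With the replicate block, zinc averaged over both injections called 1 enzyme higher instead of 2 (Glul, adjusted p = 0.074), and no other call of the 9 enzymes changed. Of the named pathway genes, the block ended the calls on Asns for zinc in PBS mice (adjusted p = 0.063) and for both treatments (0.051), on Aldh4a1 for Dex in water mice (0.067) and on Slc7a1 for Dex averaged over both regimes (0.053).

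Small LFCs that changed sign were those of Ass1 for zinc in PBS mice (-0.0234 with the B cell covariate), Otc for Dex in water mice (-0.0030 with upper-quartile factors, -0.0221 with the covariate), Cps1 for Dex in water mice (-0.0334 with the covariate) and for both treatments (-0.13 with the covariate, -0.0820 without the libraries high in liver markers), Sat1, Ass1 and Asl for zinc in Dex mice (0.0249, 0.0246 and 0.0106 without these libraries), and, with upper-quartile factors, Ass1 (0.0267) and Cps1 (0.0047) for zinc in Dex mice and the interaction of Oat (0.0169). Without 1 library, LFCs ranged across 0 for zinc in PBS mice in Asl (-0.10 to 0.0021), Ass1 (-0.0763 to 0.22) and Otc (-0.0773 to 0.16), for zinc in Dex mice in Ass1 (-0.35 to 0.34), Cps1 (-0.14 to 0.0114), Odc1 (-0.18 to 0.0032) and Sat1 (-0.13 to 0.0516), for Dex in water mice in Cps1 (-0.0905 to 0.25), Oat (-0.11 to 0.0788) and Otc (-0.11 to 0.11), for Dex in zinc mice in Oat (-0.0955 to 0.0728), Otc (-0.0040 to 0.14) and Sat1 (-0.0446 to 0.13), for both treatments in Cps1 (-0.14 to 0.21) and Otc (-0.0133 to 0.21), and for the interaction in Oat (-0.11 to 0.0933) and Odc1 (-0.0104 to 0.18).

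Counts of 3 mice limit small effects: among the enzymes not called, the intervals of Ass1 for Dex reach an LFC of 1.03.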
